A study of Mus musculus with 10 samples.

Results

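The genes of cholesterol synthesis, uptake and efflux are described here in mice with a conditional knockout of *Rnf20*, which encodes the E3 ligase that puts a single ubiquitin on histone H2B. The members were 34 genes named by symbol, and all 34 were found in both tables of RNA-seq values, which hold 17816 genes for day 7 and 20007 genes for adult testis. All 34 also passed the filter on low values, among 12880 and 15919 genes tested. The filter asked for an FPKM, a fragment count scaled by transcript length and library total, of 0.5 or more in a number of samples equal to the size of a group. The day 7 table holds 4 untreated samples of Sertoli cells, 2 of them controls, which the labels call WT and the study's methods *Rnf20* Flox/Flox. The other 2 are labelled RNF20 conditional knockout, the *Amh-Rnf20*-/- mice of the methods. The floxed alleles are thus carried by controls and knockouts alike at day 7, and the knockouts add Cre under the *Amh* promoter, which is active in Sertoli cells. These cells were released with collagenase and trypsin from testes taken 7 days after birth, grown in medium with serum and passaged several times before the adherent cells were used, and no cell sort is described. The adult table holds 6 untreated samples of whole testis, 3 labelled WT and 3 labelled RNF20 conditional knockout, and neither age in days nor strain is given for them in the sources used here.

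Cholesterol is built from acetyl-CoA. The enzymes of the mevalonate pathway make farnesyl diphosphate, squalene synthase commits it to sterols, and a series of oxidations, reductions and isomerisations turns lanosterol into cholesterol. The pathway is set mainly by the transcription factor SREBP2, which the escort protein SCAP carries from the endoplasmic reticulum to the Golgi for cleavage when membrane sterol is low, while INSIG proteins hold SCAP back when sterol is plentiful. Cells take up lipoprotein cholesterol, free it in lysosomes and store it as esters, and the oxysterol receptors LXRα and LXRβ raise the genes that export it. In the testis, Sertoli cells engulf the lipid-rich remains of germ cells, and Leydig cells use cholesterol to make testosterone.

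SREBP proteins bind the sterol regulatory element (SRE) together with NF-Y, which binds CCAAT boxes, and Sp1, which binds GC boxes. RefSeq promoters (GRCm38.p6) were matched by symbol for 27 of the 34 members, 15 of them among the 18 synthesis enzymes. In the 250 bases before the start of transcription, searched on both strands, the SRE letters TCACNCCAC were found in 1 of 27 members, *Hmgcs1*, against 1.22% of 27025 genes with a promoter entry. CCAAT was found in 21 of 27 members (77.8%) and in 14 of 15 synthesis enzymes (93.3%), against 37.5% of all genes. GGGCGG, the core of a GC box, was found in the same numbers, 21 of 27 and 14 of 15, against 35.4% of all genes. A gene counted where any of its promoter entries matched, with 38 entries for the 27 members and 32851 for all 27025 genes. By entry, CCAAT was found in 57.9% for members and 77.8% for synthesis enzymes, against 33.8% of all entries. For GGGCGG these shares were 63.2% and 83.3%, against 32.7%. The LXR element (the direct repeat DR4 with its consensus sites) and the cyclic AMP element TGACGTCA were found in 0 of 27 members, against 0.0148% and 1.77% of all genes. A match describes the sequence and is not evidence of binding. The promoters of 3 enzymes are shown, *Hmgcs1* because it holds the SRE match, *Msmo1* because it had the largest difference among the enzymes in adult testis, and *Mvk* because it had the smallest p among the enzymes at day 7. Capitals mark SRE and CCAAT matches (ATTGG on the other strand), and each sequence runs 5′ to 3′ on the strand of its gene and ends at the base before the start that its RefSeq promoter entry uses, at chr13:119690101-119690350, plus strand, chr8:64733579-64733828, minus strand, and chr5:114444019-114444268, plus strand, in the order printed. For *Mvk* that start lies a few bases inside the gene as its position is given here.
Hmgcs1: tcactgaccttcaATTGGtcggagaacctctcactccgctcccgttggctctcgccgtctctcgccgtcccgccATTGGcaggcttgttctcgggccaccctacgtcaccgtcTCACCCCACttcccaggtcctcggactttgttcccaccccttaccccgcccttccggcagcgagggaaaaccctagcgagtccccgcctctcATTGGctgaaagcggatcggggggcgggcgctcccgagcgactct
Msmo1: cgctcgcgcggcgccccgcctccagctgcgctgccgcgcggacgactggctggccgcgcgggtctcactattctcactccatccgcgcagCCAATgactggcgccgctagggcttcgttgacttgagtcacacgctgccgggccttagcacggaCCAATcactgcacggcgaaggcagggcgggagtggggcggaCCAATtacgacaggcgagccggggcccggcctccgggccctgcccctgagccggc
Mvk: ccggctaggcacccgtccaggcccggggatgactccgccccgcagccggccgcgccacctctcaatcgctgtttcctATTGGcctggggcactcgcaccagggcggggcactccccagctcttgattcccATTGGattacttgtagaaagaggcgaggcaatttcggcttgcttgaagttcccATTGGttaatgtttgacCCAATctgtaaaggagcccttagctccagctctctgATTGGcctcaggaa
In *Hmgcs1*, the enzyme that makes HMG-CoA, the SRE match lies at -137 to -129 from the start, with the nearest CCAAT matches at -176 to -172 and -45 to -41. *Msmo1* held 3 CCAAT matches, all on the strand of the gene. *Mvk* held 5 CCAAT matches, the one nearest the start at -14 to -10.

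Rounded estimated counts totalled 17477268 to 17705347 for the day 7 samples and 15431912 to 16574144 for the adult samples. *Rnf20* was at 16.64 and 16.01 FPKM in the day 7 controls and at 10.25 and 12.58 FPKM in the knockouts (log2 fold change -0.49, SE 0.12, edgeR adjusted p = 0.222). The sign turned with Sertoli cell markers held constant (log2 fold change 0.20, edgeR adjusted p = 0.755), where the median over all genes was 0.71. In adult testis *Rnf20* was at 4.89, 3.32 and 4.09 FPKM in the controls and at 9.16, 5.76 and 9.85 FPKM in the samples labelled knockout (log2 fold change 0.12, SE 0.27, edgeR adjusted p = 0.688), so with TMM scaling *Rnf20* was not lower under that label. With total counts it was called higher (log2 fold change 0.97, edgeR adjusted p = 0.0168). Its log2 fold change was -0.08 with median-ratio factors and -0.66 with Sertoli cell markers held constant, and neither was called (edgeR adjusted p of 0.804 and 0.373). Reads from outside the deleted exons, and from cells without Cre, also count toward *Rnf20*. At day 7 the summed FPKM of 17 Sertoli cell markers was 1659 to 1844 in the controls and 950 and 1335 in the knockouts, a sum of which *Clu* alone gave 859 to 961 and 655 to 741. Of the 16 Sertoli cell markers tested, 9 lay below the controls in both knockouts, 6 overlapped and 1 lay above, and edgeR called none. The cultures also held peritubular markers (7 genes, 2118 to 2248 against 3822 to 3901 FPKM summed) and fibroblast markers (7 genes, 2174 to 2263 against 3347 to 3936 FPKM summed). The 12 spermatogonia markers summed to 205 to 212 against 143 to 147 FPKM. Of the 11 tested, 9 lay below the controls in both knockouts, 1 overlapped and 1 lay above. Of the 6 spermatocyte markers tested, 5 lay below and 1 overlapped. No marker of these 4 kinds was called by edgeR. Fewer cells of a type and less RNA per cell cannot be told apart in bulk samples. In adult testis, 12 spermatid markers summed to 126900 to 195700 FPKM in the controls and 16.2 to 141 FPKM in the samples labelled knockout. The first of these 3 libraries stood apart, with spermatocyte markers at 3.29 FPKM summed against 233 and 378 and Sertoli cell markers at 2993 FPKM summed against 5894 and 6798.

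The comparison of the day 7 cultures asks whether the pathway differs between Sertoli cell cultures from mice labelled *Rnf20* conditional knockout and controls. No member was called in either direction by edgeR at an adjusted p under 0.05, where 0.0% of all genes tested were called in each direction. At an unadjusted p under 0.05, 9 members were higher and 2 lower, where 8.52% and 6.99% of all genes were. DESeq2 on the same counts called 2 members higher, *Mvk* and *Apoe*, and 1 lower, *Abcg1*, beside 3.01% and 1.5% of all genes, and limma on log2(FPKM + 0.1) called 0 (0.0% of all genes). With Sertoli cell markers held constant, edgeR called 1 member higher, *Apoe*, and 0 lower (2.35% and 0.0311% of all genes), and the median log2 fold change over all genes moved to 0.71. On TMM-scaled counts, 17 members had both knockouts above both controls and 3 had both below, and 14 overlapped. Over all genes these shares were 24.8% and 26.1%. The median log2 fold change was 0.13 over the 34 members and -0.004 over all genes tested. Leaving out the first knockout gave 10 members called higher and 3 lower by edgeR (9.74% and 11.7% of all genes), and leaving out the second gave 19 and 2 (21.0% and 18.8% of all genes), with the lone knockout taken to vary as the controls did. Both of these fits share the same controls and take their spread from them, so calls that recur in both are not a replication. Leaving out either control gave 0 in each direction.

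Among the enzymes at day 7, 17 of 18 had a log2 fold change above 0, with a median of 0.15 and none called. *Mvk*, which phosphorylates mevalonate and lies at chr5:114444264-114460591, was at 51.3 and 55.0 FPKM in the controls and at 88.5 and 84.3 FPKM in the knockouts (log2 fold change 0.74, SE 0.08, edgeR adjusted p = 0.119). Both knockouts lay above both controls, and this was the smallest p among the enzymes. The other 6 mevalonate enzymes had log2 fold changes from 0.02 (*Acat2*, which joins acetyl-CoA units) to 0.33 (*Mvd*, which makes isopentenyl diphosphate). *Mvd* was at 55.8 and 62.3 FPKM in the controls and 71.7 and 72.4 FPKM in the knockouts, and *Fdps*, which makes farnesyl diphosphate and had the highest FPKM of all members, was at 491 and 518 FPKM in the controls and 577 and 601 FPKM in the knockouts. Neither pair overlapped. Among the 11 sterol enzymes the log2 fold changes ran from -0.0002 (*Nsdhl*, a sterol dehydrogenase, which took the other sign under other scalings) to 0.33 (*Sc5d*, a sterol desaturase). *Sc5d* was at 47.2 and 53.0 FPKM against 60.4 and 62.0 FPKM, again without overlap. *Fdft1*, squalene synthase, was at 108 and 111 FPKM against 103 and 117 FPKM, *Sqle*, squalene epoxidase, at 109.8 and 113 against 136 and 116 FPKM, and *Lss*, which closes the sterol rings, at 40.0 and 43.7 against 50.8 and 45.1 FPKM. The knockouts lay above the controls for *Sqle* and *Lss* and on both sides of them for *Fdft1*. The enzymes together summed to 2069 and 2137 FPKM in the controls and 2334 and 2277 FPKM in the knockouts.

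Of the 5 genes that control SREBP, none was called at day 7. *Insig1*, a target of SREBP whose protein holds SCAP back, was at 68.4 and 73.7 FPKM in the controls and 89.6 and 82.3 FPKM in the knockouts. *Insig2*, its paralog, was at 18.1 and 16.9 FPKM in the controls and at 14.7 and 14.1 FPKM in the knockouts (log2 fold change -0.24, SE 0.10, edgeR adjusted p = 0.353). *Insig1* was thus above the controls and *Insig2* below them in both knockouts, and for *Insig2* the sign turned under scaling on Sertoli cell markers (0.50). *Srebf2*, which encodes SREBP2, was at 73.0 and 78.1 FPKM against 88.0 and 78.7 FPKM, *Scap* at 34.5 and 36.7 against 42.5 and 37.5 FPKM, and *Srebf1*, which encodes the SREBP of fatty acid synthesis, at 44.5 and 47.8 against 49.3 and 41.4 FPKM. *Srebf2* and *Scap* were above the controls in both knockouts, and *Srebf1* overlapped.

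Among the 6 genes of uptake and intracellular handling, *Stard4*, a carrier of cholesterol in the cytosol, was at 16.4 and 16.9 FPKM in the controls and at 20.7 and 20.1 FPKM in the knockouts (log2 fold change 0.33, SE 0.07, edgeR adjusted p = 0.196). FPKM values of *Soat1*, which esterifies cholesterol for storage, were 44.8 and 43.3 in the controls against 36.1 and 32.8 in the knockouts (log2 fold change -0.32, SE 0.09, edgeR adjusted p = 0.245). Both knockouts were above the controls for *Stard4* and below them for *Soat1*. For *Soat1* the sign turned under Sertoli marker scaling (0.43, with a median of 0.71 over all genes). *Npc2*, which passes cholesterol out of lysosomes together with *Npc1*, was at 78.2 and 81.9 FPKM against 99.0 and 93.6 FPKM, without overlap. *Npc1* (log2 fold change 0.20), the lysosomal lipase gene *Lipa* (-0.05) and the HDL receptor gene *Scarb1* (0.02) had adjusted p values between 0.458 and 0.957 in edgeR.

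The widest differences at day 7 were among the efflux genes. *Abcg1*, the transporter that passes cholesterol to HDL, at chr17:31057694-31117984, was at 8.23 and 7.44 FPKM in the controls and at 3.18 and 2.61 FPKM in the knockouts (log2 fold change -1.40, SE 0.14, edgeR adjusted p = 0.119). Both knockouts were below both controls, and over the fits with all samples the adjusted p of *Abcg1* ran from 3.26e-08 (DESeq2) to 0.396 (edgeR with Sertoli cell markers held constant, where its log2 fold change was -0.63). *Apoe*, the apolipoprotein that carries exported cholesterol, at chr7:19696244-19701310, was at 23.7 and 20.6 FPKM in the controls and at 129 and 50.5 FPKM in the knockouts (log2 fold change 1.98, SE 0.47, edgeR adjusted p = 0.211). Both knockouts were above the controls, but they differed from each other more than for any other member, and the log2 fold change was 2.50 without the second knockout and 1.15 without the first. *Apoe* is also known as an abundant transcript of macrophages, and 10 macrophage markers summed to 32.9 and 36.9 FPKM in the controls and to 64.0 and 34.5 FPKM in the knockouts, while 5 Leydig cell markers summed to 149 and 156 against 301 and 205 FPKM. The part of these cells in the *Apoe* difference was not tested. *Abca1*, which loads lipid-poor apolipoproteins, was at 23.8 and 21.1 FPKM against 23.0 and 14.7 FPKM, with the first knockout among the controls and the second below them. The LXR genes *Nr1h2* and *Nr1h3* were at 47.0 and 50.2 against 41.6 and 49.7 FPKM and at 1.79 and 1.73 against 1.84 and 1.22 FPKM, and both overlapped.

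**Figure D1:**
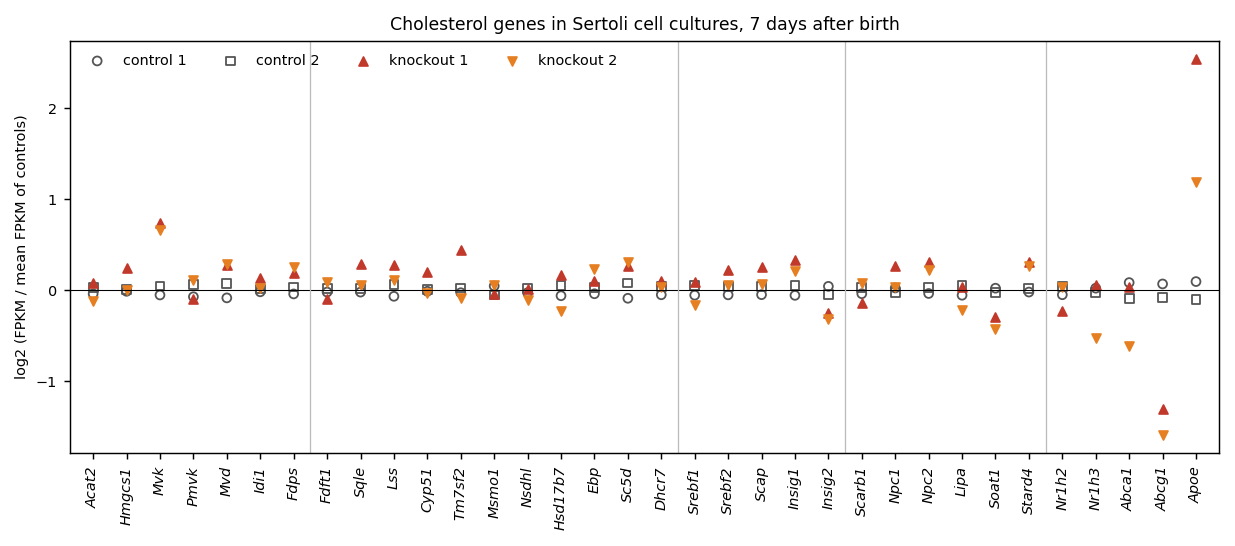
Level of the 34 members in each day 7 sample as log2 of FPKM over the mean FPKM of the 2 controls, with genes in pathway order and grey lines between roles. Most knockout points lie near 0, Apoe stands above in both knockouts and Abcg1 below in both.

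The adult comparison asks how the pathway differs between whole testes, and the make-up of the tissue differed at the same time. In edgeR, 30 of 34 members were called higher in the samples labelled knockout, where 40.9% of all genes were, and 1 was called lower, where 40.6% were. *Hsd17b7* and *Abcg1* passed the filter only through the samples labelled knockout, where they are high. Passing in that way favours a difference, so their calls are no support for a rise. Of the 32 members that reached 0.5 FPKM in all controls, 28 were called higher, beside 33.5% of all genes that did so. At |log2 fold change| over 1 and adjusted p under 0.001, the study's thresholds, 25 were higher (23.0% of all genes) and 1 lower (23.7% of all genes). On TMM-scaled counts 31 members lay above and 1 below the controls without overlap, shares that were 42.4% and 43.1% over all genes. The median log2 fold change was 2.89 over the members and 0.01 over all genes tested. Beside the near loss of spermatid transcripts, 6 Leydig cell markers summed to 3878 to 5566 FPKM in the controls and 61750 to 86210 FPKM in the samples labelled knockout, and all 6 were called higher. The 10 macrophage markers summed to 84.5 to 96.3 against 2109 to 3295 FPKM and the 7 fibroblast markers to 40.9 to 53.6 against 1308 to 3399 FPKM, again all called higher. The 17 Sertoli cell markers summed to 727 to 909 against 2993 to 6798 FPKM, with 8 called higher and 1 lower. *Clu* alone gave 450 to 564 and 1857 to 4953 FPKM of these sums. Of the 16 tested, 7 overlapped between groups. Among these, *Sox9* (1.2 FPKM), *Dhh* (2.21), *Fshr* (0.3), *Rhox8* (11.92), *Aard* (92.42) and *Inhbb* (2.44) lay below every control in the first library labelled knockout. The remaining marker, *Cldn11* (32.84 FPKM in that library), lay among the controls. *Thy1* of the fibroblast markers (0.2 to 0.37 FPKM in the controls) and *Krt18* of the Sertoli cell markers (0.16 to 0.58) were called higher. Both passed the filter only through the samples labelled knockout, so their calls are no support for a rise. No marker of these lists was at 0 in every sample, and the part of each cell type in the members' differences was not tested.

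The deposited FPKM are scaled to the total of each library, and the fold changes given here are TMM-scaled, so in adult testis they lie below the ratio of the FPKM values for every member, which makes rises smaller and the fall of *Fdft1* larger. The median log2 fold change over all genes was 0.01 with TMM, 0.87 with total counts, -0.19 with median-ratio factors and -0.88 when Sertoli cell markers were held constant. Members called higher then numbered 30 with TMM, 32 with total counts (54.1% of all genes), 30 with median-ratio factors (37.6%) and 21 with Sertoli cell markers (17.1%). The count of members called lower was 1 with TMM, with total counts (30.0% of all genes) and with median-ratio factors (43.5%) and 2 with Sertoli cell markers (42.0%). The Sertoli marker factors differed widely within the samples labelled knockout, at 0.92, 2.51 and 3.20, so a call lost under that scaling can reflect a larger SE. DESeq2 called 30 higher and 1 lower (38.2% and 44.2% of all genes). Without the first sample labelled knockout, the library that stood apart, 31 members were called higher (45.3% of all genes) and 1 lower (41.1%).

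**Figure D2:**
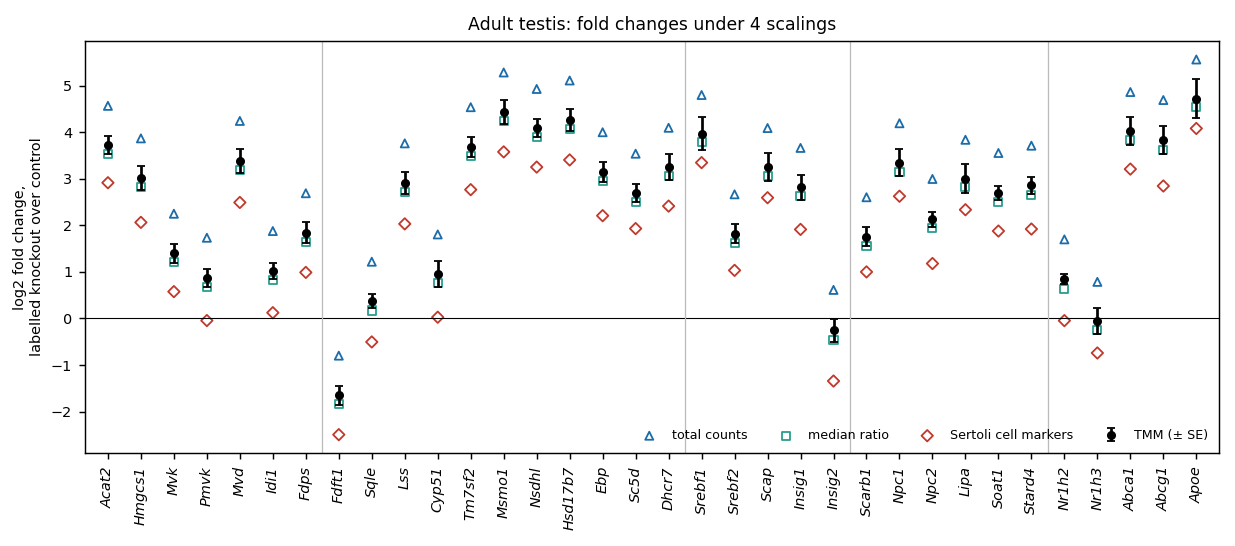
Log2 fold change of each member in adult testis, samples labelled knockout over controls, under 4 scalings; black points are TMM values with their SE. Fdft1 lies below 0 under all 4, and Insig2 and Nr1h3 lie above 0 only with total counts.

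All 7 mevalonate enzymes were called higher in the samples labelled knockout, 4 of them past the study's thresholds. *Acat2*, which joins acetyl-CoA units at the head of the pathway, was at 5.96, 4.36 and 4.72 FPKM in the controls and at 126, 127 and 105 FPKM in the samples labelled knockout (log2 fold change 3.72, SE 0.19, edgeR adjusted p = 3.18e-05). FPKM values of *Hmgcs1* were 21.8, 16.8 and 22.6 in the controls against 239.8, 391 and 268 in the samples labelled knockout (log2 fold change 3.02, SE 0.26, edgeR adjusted p = 1.17e-04). For *Mvd* the controls held 1.92, 1.87 and 1.22 FPKM and the samples labelled knockout 28.6, 38.9 and 27.9 FPKM (log2 fold change 3.39, SE 0.26, edgeR adjusted p = 8.11e-05). In all 3 genes the lowest sample labelled knockout was above the highest control. *Acat2* has a near copy, *Acat3*, in the tables (2.27 to 2.61 FPKM in the controls and 22.0 to 30.3 FPKM in the samples labelled knockout), and reads may be shared between them. *Fdps*, the last enzyme before the sterol branch, was at 90.8, 76.8 and 82.2 FPKM in the controls and at 505, 639 and 404 FPKM in the samples labelled knockout (log2 fold change 1.84, SE 0.23, edgeR adjusted p = 4.79e-04). The other 3, *Mvk*, *Pmvk* and *Idi1*, had log2 fold changes of 1.40, 0.87 and 1.02. *Fdps* shares 26.7% of its exon bases with Gm43738 on the same strand, which was not analysed here. With Sertoli cell markers held constant, *Mvk*, *Pmvk*, *Idi1* and *Fdps* were not called (log2 fold changes 0.58, -0.04, 0.12 and 0.99).

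Of the 11 sterol enzymes, 9 were called higher, 1 lower and 1 not. Among the sterol enzymes that reached 0.5 FPKM in all controls, *Msmo1* and *Nsdhl* had the largest log2 fold changes. Both act with *Hsd17b7* to strip the methyl groups at the fourth carbon of the sterol ring, a shared role that was not tested. *Msmo1*, the methylsterol oxidase at chr8:64718123-64733578, was at 12.0, 9.53 and 11.9 FPKM in the controls and at 419, 538 and 347 FPKM in the samples labelled knockout (log2 fold change 4.44, SE 0.26, edgeR adjusted p = 3.84e-05). FPKM values of *Nsdhl*, the dehydrogenase that acts next, were 5.78, 3.99 and 4.98 in the controls against 151, 164 and 135 in the samples labelled knockout (log2 fold change 4.08, SE 0.19, edgeR adjusted p = 2.88e-05). For *Hsd17b7*, the reductase that completes each round, at chr1:169949535-169969242, the controls held 0.640, 0.380 and 0.490 FPKM and the samples labelled knockout 16.4, 20.5 and 15.7 FPKM (log2 fold change 4.27, SE 0.23, edgeR adjusted p = 3.40e-05). In each of these 3 genes every sample labelled knockout lay above every control. *Hsd17b7* was the lowest enzyme in all 4 groups of the study, and with control values of 0.38 to 0.64 FPKM it passed the filter only through the samples labelled knockout, so its call, counted among the 9, is no support for a rise. *Tm7sf2*, a sterol reductase, was at 3.41, 2.65 and 2.81 FPKM in the controls and at 58.6, 87.7 and 60.5 FPKM in the samples labelled knockout (log2 fold change 3.69, SE 0.22, edgeR adjusted p = 4.10e-05). FPKM values of *Dhcr7*, the reductase of the last step of one branch, were 6.93, 3.29 and 5.37 in the controls against 91.6, 103 and 89.9 in the samples labelled knockout (log2 fold change 3.25, SE 0.28, edgeR adjusted p = 1.17e-04). *Tm7sf2* shares 12.1% of its exon bases with *Vps51* on the same strand, and *Vps51* was at 7.59 to 9.38 FPKM against 13.5 to 14.9 FPKM. For *Ebp*, a sterol isomerase, the controls held 10.02, 6.66 and 7.43 FPKM and the samples labelled knockout 104, 155 and 127 FPKM (log2 fold change 3.15, SE 0.22, edgeR adjusted p = 5.82e-05). *Lss* was at 1.88, 2.02 and 2.31 FPKM in the controls and at 23.9, 33.0 and 19.5 FPKM in the samples labelled knockout (log2 fold change 2.91, SE 0.24, edgeR adjusted p = 9.48e-05). *Ebp* and *Lss* were above every control in each sample labelled knockout. FPKM values of *Sc5d* were 6.31, 4.91 and 5.57 in the controls against 63.8, 60.1 and 50.2 in the samples labelled knockout (log2 fold change 2.70, SE 0.20, edgeR adjusted p = 6.91e-05). *Cyp51*, which removes the methyl group of lanosterol that the methylsterol oxidase does not, was at 24.6, 23.99 and 30.5 FPKM against 78.6, 129 and 69.0 FPKM (log2 fold change 0.95, edgeR adjusted p = 0.0186). It was not called without the first control (adjusted p = 0.0672 in edgeR) or the second (0.0635), and its adjusted p ran from 7.77e-04 to 0.972 over the fits with all samples. *Sqle* was not called (log2 fold change 0.37, SE 0.15, edgeR adjusted p = 0.0617), although its FPKM of 31.5, 29.7 and 34.9 and 71.9, 85.1 and 66.8 did not overlap, and it was called higher without the first (0.0111) or the third (0.0296) sample labelled knockout. With all samples, *Sqle* was called higher with total counts (log2 fold change 1.22, edgeR adjusted p = 4.57e-04) and in limma on log2(FPKM + 0.1) and log2(FPKM + 1) (1.21 and 1.19, adjusted p of 3.03e-04 and 2.38e-04), and its log2 fold change was -0.50 with Sertoli cell markers held constant (edgeR adjusted p = 0.458).

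Squalene synthase went the other way. *Fdft1*, the enzyme that commits farnesyl diphosphate to sterols, at chr14:63145150-63181687, was at 207, 195 and 199 FPKM in the controls and at 113, 129.8 and 98.0 FPKM in the samples labelled knockout (log2 fold change -1.65, SE 0.20, edgeR adjusted p = 4.45e-04). Every sample labelled knockout was below every control, and the adjusted p ran from 3.88e-18 to 0.00515 over the fits with all samples, with a log2 fold change of -0.80 under total-count scaling and -2.50 with Sertoli cell markers held constant. *Fdft1* shares 774 exon bases (18.3% of its exons) with *Ctsb*, a protease gene on the opposite strand, and how strand was handled is not given in the sources used here. *Ctsb* was at 29.0 to 42.9 FPKM in the controls and 588 to 810 FPKM in the samples labelled knockout, the opposite direction.

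**Figure D3:**
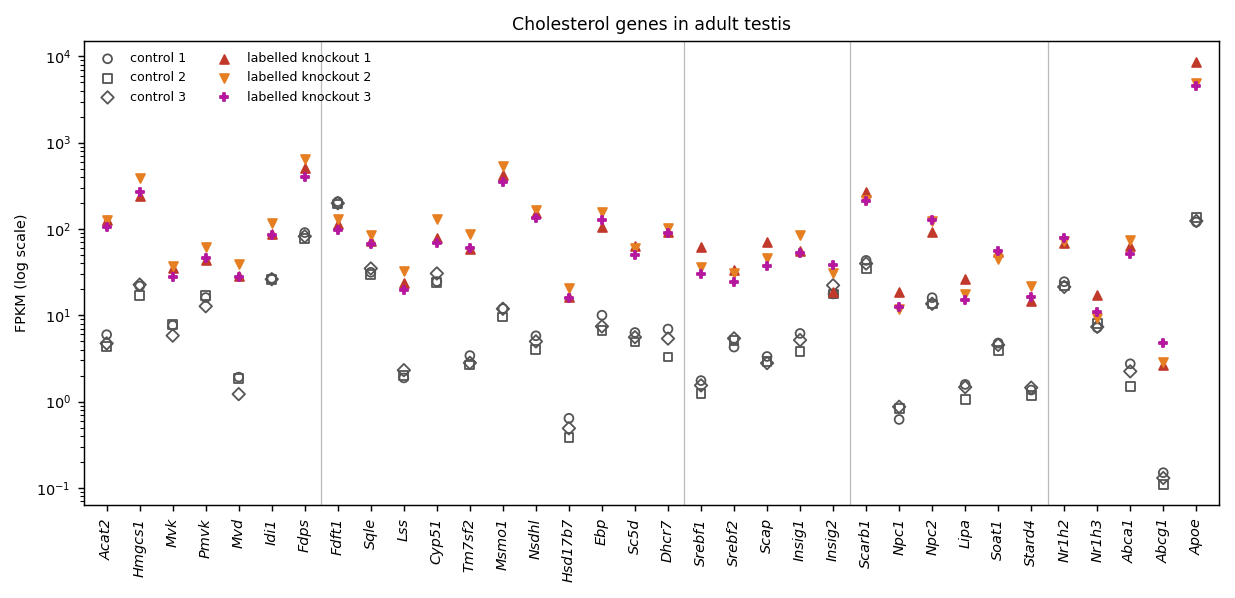
FPKM of the 34 members in each adult testis sample on a log axis, in pathway order with grey lines between roles. Fdft1 is the one member whose samples labelled knockout all lie below the controls, and Apoe reaches the highest level, 4484 to 8641 FPKM.

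Within a sample the ratio of 2 genes does not depend on the scaling. The ratio of *Fdft1* to *Fdps*, the enzyme before it, was 2.28 to 2.54 in the adult controls, 0.203 to 0.243 in the samples labelled knockout and 0.178 to 0.221 in the 4 day 7 samples. *Fdft1* was thus the highest synthesis enzyme in adult control testis, at a mean of 200.3 ± 6.32 FPKM (SD, n = 3), and *Fdps* the highest in the other 3 groups. The highest enzyme was 398-fold above the lowest in adult controls, 29.4-fold in the samples labelled knockout, and 32.9-fold and 38.9-fold in the day 7 controls and knockouts. Across the 18 enzymes, log2 mean levels of the day 7 controls correlated at r = 0.69 with adult controls and r = 0.82 with the samples labelled knockout, and across all 34 members at 0.52 and 0.58, a description over genes of 2 tables scaled separately. The pairs of genes were chosen after their values were seen. Log2 ratios were compared in exact two-sided permutation tests over samples, 12 in all. The groups overlapped for *Abcg1* to *Abca1* in adult testis (exact p = 0.2, adjusted 0.4). They also overlapped at day 7 for *Fdft1* to *Sqle* and *Nr1h2* to *Nr1h3*, and for none of the other ratios. For *Fdft1* to *Fdps* the exact p was 0.1 in adult testis (adjusted over the 12, 0.24) and 0.333 at day 7 (0.4), in each case the smallest that the number of samples allows.

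**Figure D4:**
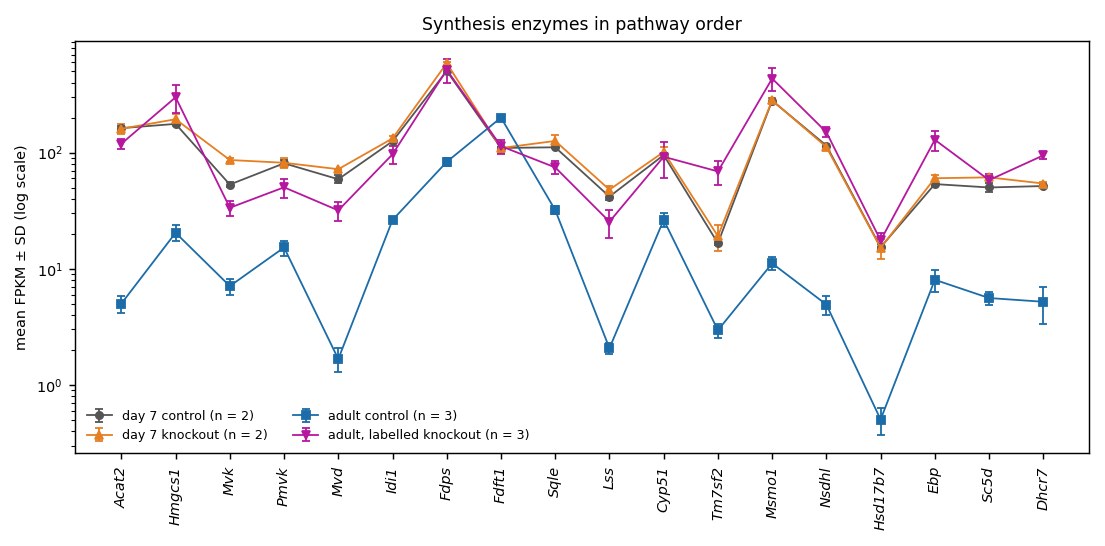
Mean FPKM ± SD of the 18 synthesis enzymes in pathway order for the 4 groups, on a log axis (n = 2 at day 7, n = 3 in adult testis). Fdft1 stands out in the adult controls at 200.3 FPKM, where the median enzyme was at 7.57 FPKM against 88.1 to 93.9 FPKM in the other 3 groups.

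Of the genes that control SREBP in adult testis, 4 of 5 were called higher. *Srebf1* was at 1.75, 1.24 and 1.54 FPKM in the controls and at 61.2, 36.1 and 30.4 FPKM in the samples labelled knockout (log2 fold change 3.97, SE 0.36, edgeR adjusted p = 1.33e-04). FPKM values of *Scap*, the escort of SREBP, were 3.33, 2.93 and 2.79 in the controls against 69.9, 46.7 and 36.9 in the samples labelled knockout (log2 fold change 3.25, SE 0.31, edgeR adjusted p = 1.58e-04). For *Srebf2* the controls held 4.28, 5.14 and 5.40 FPKM and the samples labelled knockout 33.4, 31.0 and 23.99 FPKM (log2 fold change 1.82, SE 0.21, edgeR adjusted p = 3.28e-04). The 3 genes did not overlap between groups, and the first sample labelled knockout was the highest for each. *Srebf2* was not called with Sertoli cell markers held constant (log2 fold change 1.03, edgeR adjusted p = 0.151). *Insig1*, the INSIG gene that SREBP itself raises, was at 6.16, 3.81 and 5.16 FPKM in the controls and at 54.9, 84.7 and 52.5 FPKM in the samples labelled knockout (log2 fold change 2.82, SE 0.27, edgeR adjusted p = 1.62e-04). FPKM values of *Insig2* were 17.67, 17.6 and 22.2 in the controls against 18.4, 31.2 and 38.7 in the samples labelled knockout (log2 fold change -0.26, SE 0.24, edgeR adjusted p = 0.353). *Insig1* rose and *Insig2* was not called: its groups overlapped, its log2 fold change was 0.61 with total counts, 0.09 without the first sample labelled knockout and -1.34 with Sertoli cell markers held constant, where it was called lower (edgeR adjusted p = 0.0333, with a range of 0.0333 to 0.428 over the fits with all samples). The ratio of *Insig1* to *Insig2* was 0.216 to 0.349 in the controls and 1.36 to 2.99 in the samples labelled knockout, and that of *Srebf2* to *Srebf1* was 2.45 to 4.15 against 0.547 to 0.861. Both gave p = 0.1 in the exact permutation test, the smallest that 3 samples against 3 allow (0.24 adjusted over the 12 ratios).

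All 6 genes of uptake and intracellular handling were called higher past the study's thresholds. *Scarb1*, the HDL receptor that brings cholesterol esters into steroid-making cells, was at 43.2, 34.9 and 39.8 FPKM in the controls and at 271, 217 and 210.4 FPKM in the samples labelled knockout (log2 fold change 1.76, SE 0.20, edgeR adjusted p = 3.25e-04). FPKM values of *Npc1*, the lysosomal membrane exporter, were 0.620, 0.840 and 0.870 in the controls against 18.4, 11.7 and 12.5 in the samples labelled knockout (log2 fold change 3.35, SE 0.28, edgeR adjusted p = 1.07e-04). For *Npc2*, its soluble partner, the controls held 16.0, 13.5 and 13.6 FPKM and the samples labelled knockout 93.2, 125 and 127 FPKM (log2 fold change 2.14, SE 0.16, edgeR adjusted p = 7.53e-05). None of the 3 overlapped between groups, and *Scarb1* and *Npc2* were not called with Sertoli cell markers held constant (edgeR adjusted p of 0.175 and 0.0696). *Lipa*, which frees cholesterol from its esters in lysosomes, was at 1.58, 1.06 and 1.47 FPKM in the controls and at 26.2, 17.8 and 14.9 FPKM in the samples labelled knockout (log2 fold change 3.01, SE 0.31, edgeR adjusted p = 2.11e-04). FPKM values of *Soat1* were 4.77, 3.87 and 4.53 in the controls against 54.5, 45.2 and 55.5 in the samples labelled knockout (log2 fold change 2.70, SE 0.15, edgeR adjusted p = 3.53e-05). For *Stard4* the controls held 1.36, 1.18 and 1.45 FPKM and the samples labelled knockout 14.7, 21.6 and 16.1 FPKM (log2 fold change 2.86, SE 0.18, edgeR adjusted p = 4.77e-05). The SE of *Soat1* was the smallest of this group, and for both *Soat1* and *Stard4* each sample labelled knockout lay above every control. *Npc1* shares 4.52% of its exon bases with *Rmc1* on the opposite strand.

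Of the LXR and efflux genes 4 of 5 were called higher. *Apoe* was at 120.3, 135 and 124 FPKM in the controls and at 8641, 4981 and 4484 FPKM in the samples labelled knockout (log2 fold change 4.73, SE 0.42, edgeR adjusted p = 1.33e-04). It had the largest log2 fold change of the members and, with 4484 FPKM or more, the highest level. FPKM values of *Abca1* were 2.74, 1.51 and 2.24 in the controls against 64.0, 74.5 and 50.9 in the samples labelled knockout (log2 fold change 4.03, SE 0.30, edgeR adjusted p = 7.44e-05). For *Abcg1* the controls held 0.150, 0.110 and 0.130 FPKM and the samples labelled knockout 2.66, 2.91 and 4.75 FPKM (log2 fold change 3.83, SE 0.30, edgeR adjusted p = 8.41e-05). *Abca1* and *Abcg1*, both targets of LXR, did not overlap between groups, and *Abcg1*, at 0.15 FPKM or less in the controls, passed the filter only through the samples labelled knockout, so its call is likewise no support for a rise. *Nr1h2*, which encodes LXRβ, was at 24.5, 21.8 and 21.3 FPKM against 68.8, 72.0 and 78.5 FPKM (log2 fold change 0.84, edgeR adjusted p = 5.35e-04), and its log2 fold change was -0.05 with Sertoli cell markers held constant. *Nr1h3*, which encodes LXRα, was at 7.19, 8.07 and 7.34 FPKM in the controls and at 17.0, 9.33 and 10.8 FPKM in the samples labelled knockout (log2 fold change -0.06, SE 0.28, edgeR adjusted p = 0.856). Its TMM-scaled counts overlapped while its FPKM did not, and the sign turned with total counts, where *Nr1h3* was called higher (0.79, edgeR adjusted p = 0.0251), and in limma on log2(FPKM + 0.1) and log2(FPKM + 1), which also called it higher (0.67 and 0.61, adjusted p of 0.0436 and 0.0396). Its adjusted p ran up to 0.947 over the fits with all samples.

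Of the 34 members 26 had a log2 fold change above 0 at day 7, where 6343 of 12880 genes tested did. With total counts 22 members were above 0, where 5412 of the 12880 genes were. With Sertoli cell markers held constant 33 members were, where 12289 of the 12880 genes were. In adult testis 31 members were above 0, where 7988 of 15919 genes were. Under the same scalings 33 and 28 members were, where 9909 and 5877 of the 15919 genes were. The comparisons share no samples. The correlation of the members' log2 fold changes was r = 0.12 over the 34 genes, given as a description. *Abcg1* was below the controls in both day 7 knockouts and above them in all 3 adult samples labelled knockout, and *Soat1* likewise. *Apoe* was above the controls in both.

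**Figure D5:**
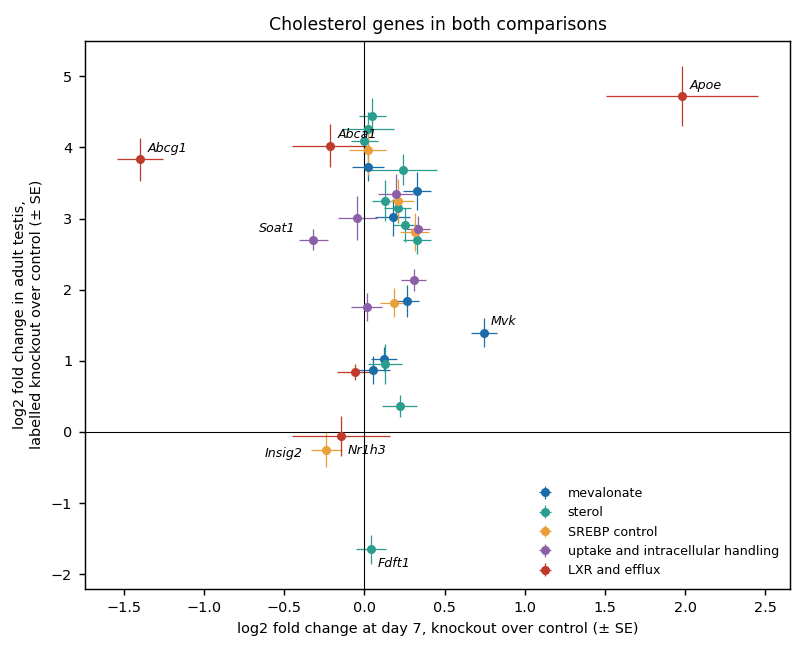
Log2 fold change of each member at day 7 (x axis) and in adult testis (y axis), with SE bars and colours for roles. Abcg1 lies at -1.40 and 3.83, Apoe at 1.98 and 4.73, and Fdft1 is the one member near 0 at day 7 and far below 0 in adult testis.

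A further 53 genes of the pathway that are not members were listed, of which 51 were tested at day 7 and 50 in adult testis. At day 7 edgeR called 0 of them, limma 0 and DESeq2 3 higher and 2 lower, with 7 higher and 5 lower at an unadjusted p under 0.05. Over all genes the shares were 3.01% and 1.5% in DESeq2 and 8.52% and 6.99% at the unadjusted p. The smallest p values were those of the lipoprotein receptor gene *Vldlr*, 9.31 and 8.73 FPKM in the controls and 5.15 and 4.96 FPKM in the knockouts (log2 fold change -0.79, SE 0.09, edgeR adjusted p = 0.119), the ester hydrolase gene *Nceh1*, 17.1 and 16.3 against 11.3 and 11.9 FPKM (log2 fold change -0.48, SE 0.09, edgeR adjusted p = 0.159), and *Nus1*, a subunit of the enzyme that makes dolichol, 30.4 and 30.4 against 21.4 and 24.1 FPKM (log2 fold change -0.38, SE 0.09, edgeR adjusted p = 0.207). In these 3 genes both knockouts were below both controls. With Sertoli cell markers held constant the log2 fold change of *Vldlr* was -0.06. The sign turned for *Nceh1* (0.23) and *Nus1* (0.32).

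In adult testis 32 of the 50 were called higher and 9 lower, beside 40.9% and 40.6% of all genes, and 21 and 9 with Sertoli cell markers held constant, beside 17.1% and 42.0%. Of the 43 that reached 0.5 FPKM in all controls, 26 were called higher (60.5%), beside 33.5% of all genes that did so. The other 6 genes called higher did not reach that level in all controls, so their calls are no support for a rise. The counts by group given below include them. *Fasn*, fatty acid synthase, was at 4.14, 3.59 and 3.94 FPKM in the controls and at 37.4, 34.1 and 36.9 FPKM in the samples labelled knockout (log2 fold change 2.37, SE 0.14, edgeR adjusted p = 3.87e-05). FPKM values of *Mbtps1*, the first of the proteases that cleave SREBP, were 6.69, 5.49 and 5.79 in the controls against 47.8, 45.8 and 47.8 in the samples labelled knockout (log2 fold change 2.13, SE 0.12, edgeR adjusted p = 3.97e-05). For *Scarb2*, a lysosomal membrane receptor, the controls held 1.5, 1.16 and 1.61 FPKM and the samples labelled knockout 18.0, 26.7 and 24.6 FPKM (log2 fold change 3.16, SE 0.19, edgeR adjusted p = 4.03e-05). These rose with no overlap. *Rnf139*, an endoplasmic reticulum ubiquitin ligase, was at 109, 105 and 142 FPKM in the controls and 16.3, 16.1 and 15.5 FPKM in the samples labelled knockout (log2 fold change -3.75, SE 0.21, edgeR adjusted p = 3.55e-05). *Cyp46a1*, a cholesterol hydroxylase best known from neurons, was at 6.17, 5.39 and 7.37 against 0.920, 1.21 and 1.19 FPKM (log2 fold change -3.40, SE 0.21, edgeR adjusted p = 4.33e-05), and *Erlin1*, which takes part in turnover of INSIG-bound proteins, at 16.4, 12.8 and 15.42 against 9.19, 6.97 and 8.20 FPKM (log2 fold change -1.75, SE 0.16, edgeR adjusted p = 1.49e-04). In these 3 genes every sample labelled knockout lay below every control. By group, the acetyl-CoA supply and fatty acid genes had 8 of 10 called higher and 1 lower, the uptake genes 4 of 5 higher, the efflux and lipoprotein genes 5 of 8 higher and 1 lower, the transport and ester genes 4 of 7 higher and 2 lower, the SREBP processing genes 4 of 8 higher and 2 lower, the branch enzymes 4 of 7 higher and 1 lower, and the oxysterol genes 3 of 5 higher and 2 lower.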

How the data were processed

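RNA was enriched with oligo(dT) and sequenced on the BGISEQ platform. The authors used HISAT for the genome (GRCm38.p6), Bowtie2 for the reference genes and RSEM for FPKM; versions, read filters and strand handling are not given in the sources used here, and the paper describes this for day 7. The deposited tables give unnormalized estimated counts beside FPKM and TPM, and the deposited TPM were not used. A further 20 columns without values were not used. Groups came from the labels, which name adult tissue as growth protocol for all samples; the titles give day 7. The methods give more individuals per day 7 group than the 2 samples analysed here. Where samples are not from separate animals, p-values measure only the spread between these samples.

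Counts were rounded (10.7% to 13.2% of genes per sample were not whole) and tested in each table alone with edgeR 4.0.16 (quasi-likelihood, TMM, Benjamini-Hochberg over all genes tested, called at an adjusted p under 0.05), on genes that reached 0.5 FPKM in a number of samples equal to a group's size. The SE is the log2 fold change over the root of the test statistic. The members and lists were chosen with earlier results of these data known. All 34 members are reported; those past the study's thresholds, and the 3 with the smallest p in each direction, are given in full, and of the further 53 pathway genes the 3 called genes with the smallest p in each direction (at day 7 the 3 smallest p). Alternatives were median-ratio, total-count and Sertoli marker scaling, other filters, DESeq2 1.42.0, limma 3.58.1 on log2(FPKM + 0.1) and log2(FPKM + 1), the replicate number as a block, the study's thresholds and each sample left out. Gene positions and promoters come from RefSeq and exon overlaps from GENCODE, all on GRCm38. The edgeR script was tested on simulated data in which all genes had the same set spread. That spread was not taken from these samples, so the simulation does not show how the test behaves on them. R 4.3.3 and Python 3.11.15 were used.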

Additional observations from a re-analysis of the deposited data

Results flagged for a closer look

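*Abcg1* and *Soat1* differed in direction between the comparisons. For *Abcg1* both day 7 knockouts lay below both controls (log2 fold change -1.40), and all 3 adult samples labelled knockout lay above all 3 controls (3.83), although *Abcg1* passed the adult filter only through the samples labelled knockout. For *Soat1* the values were -0.32 at day 7 and 2.70 in adult testis, again with no overlap in either. With Sertoli cell markers held constant *Soat1* had the same sign in both (0.43 and 1.88), and *Abcg1* did not (-0.63 and 2.85). At day 7 that scaling put 12289 of 12880 genes above 0, with a median of 0.71. *Soat1* at 0.43 was thus still below the median gene, and its shared sign says little. The day 7 values were not called by edgeR, the adult value of *Soat1* was, and the difference between the comparisons was not tested, since the tables hold different tissues and were scaled separately. Groups of 2 or 3 samples are too small for a test of single outlying samples.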

How the results depend on the processing

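At day 7 the count of 0 members called in each direction held under median-ratio and total-count scaling, no filter, a mean FPKM of at least 1, both limma fits, the study's thresholds and the replicate block. DESeq2 called 2 members higher and 1 lower, and 3 further pathway genes higher and 2 lower. Sertoli marker scaling called 1 member (*Apoe*, edgeR adjusted p = 5.49e-04) and 2 further pathway genes higher. Leaving out each sample in turn gave 0 to 19 members higher and 0 to 3 lower, and 0 to 16 further pathway genes higher and 0 to 9 lower, and the calls came from the fits that left out a knockout.

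Day 7 fold changes of members that were not called took the other sign as follows, with the cause not tested: with Sertoli marker scaling *Nsdhl* (0.74), *Insig2* (0.50), *Lipa* (0.71), *Soat1* (0.43), *Nr1h2* (0.63), *Nr1h3* (0.64) and *Abca1* (0.61); with total counts *Acat2* (-0.0171), *Hsd17b7* (-0.0163), *Srebf1* (-0.0197) and *Scarb1* (-0.0235); with limma on log2(FPKM + 0.1) *Acat2* (-0.0208), *Fdft1* (-0.00416), *Hsd17b7* (-0.0295), *Srebf1* (-0.0281) and *Scarb1* (-0.0297); with limma on log2(FPKM + 1) *Acat2* (-0.0207), *Fdft1* (-0.0041), *Hsd17b7* (-0.0272), *Srebf1* (-0.0275) and *Scarb1* (-0.0294). *Nsdhl* was at 0.0041 with DESeq2, 0.0019 with a mean FPKM of at least 1 and 0.0041 with median-ratio scaling. With each sample left out the log2 fold changes that turned ran over *Abca1* (-0.58 to 0.0792), *Acat2* (-0.0871 to 0.12), *Fdft1* (-0.0494 to 0.13), *Hsd17b7* (-0.20 to 0.22), *Lipa* (-0.18 to 0.079), *Msmo1* (-0.00621 to 0.11), *Nr1h2* (-0.19 to 0.0534), *Nr1h3* (-0.48 to 0.12), *Nsdhl* (-0.0703 to 0.0659), *Pmvk* (-0.0461 to 0.14), *Scarb1* (-0.0858 to 0.11), *Srebf1* (-0.12 to 0.14) and *Tm7sf2* (-0.0497 to 0.49).

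In adult testis the members called numbered 29 to 32 higher and 1 lower under every alternative with 2 exceptions: Sertoli marker scaling gave 21 higher and 2 lower, and the study's thresholds 25 higher and 1 lower. Of further pathway genes Sertoli marker scaling called 21 higher (17.1% of all genes), where TMM called 32 (40.9%). Both called 9 lower (42.0% and 40.6% of all genes). Total counts called 38 higher and 6 lower (54.1% and 30.0% of all genes), the same counts as both limma fits. The study's thresholds gave 24 higher and 7 lower (23.0% and 23.7% of all genes). Leaving out each sample in turn gave 29 to 31 members higher and 1 lower, and 30 to 34 further pathway genes higher and 7 to 10 lower. Signs turned with Sertoli marker scaling for *Pmvk* (-0.0442), *Sqle* (-0.50) and *Nr1h2* (-0.0458), with total counts for *Insig2* (0.61) and *Nr1h3* (0.79), with limma on log2(FPKM + 0.1) for *Insig2* (0.56) and *Nr1h3* (0.67) and on log2(FPKM + 1) for *Insig2* (0.54) and *Nr1h3* (0.61), and with a sample left out for *Insig2* (-0.36 to 0.0944) and *Nr1h3* (-0.27 to 0.12); the cause was not tested.

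The replicate numbers did not pair the samples: deviations from the group means of same-numbered samples correlated at 0.036 at day 7 and 0.011 to 0.025 in adult testis. With the replicate number as a block, 0 members were called at day 7, and 29 were called higher and 1 lower in adult testis, where *Cyp51* had an adjusted p of 0.0573 in edgeR. In the adult controls *Abcg1*, at 0.11 to 0.15 FPKM, rests on the fewest reads of the members.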

Other observations

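The 34 members took 0.616% to 0.696% of all counts in the day 7 samples, 0.145% to 0.159% in the adult controls and 1.10% to 1.58% in the samples labelled knockout. The median range between replicates over the members, on the log2 scale, was 0.07 in the day 7 controls and 0.18 in the day 7 knockouts, and over all genes 0.07 and 0.22. In adult testis it was 0.29 and 0.59 over the members and 0.29 and 0.54 over all genes. The member with the widest range was *Abca1* (0.19) in the day 7 controls, *Apoe* (1.34) in the day 7 knockouts, *Dhcr7* (0.98) in the adult controls and *Srebf1* (1.15) in the samples labelled knockout. By FPKM the first knockout was the higher one for 25 of 34 members at day 7. Among the adult samples labelled knockout the second was the highest for 20 members, the first for 9 and the third for 5.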
